A study of Mus musculus with 10 samples.

Results

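The small structured noncoding RNAs are the genes in the table of normalized read counts whose GENCODE M21 entry has the biotype snoRNA, scaRNA, snRNA, misc_RNA or ribozyme. There were 232 of them among 18012 genes: 103 snoRNAs, 69 snRNAs, 46 of the class misc_RNA, 9 scaRNAs and 5 ribozymes. The annotation lists 3525 genes of these 5 biotypes, and only those in the deposited table were analysed here. The RNA was of tumours that the cell line 4T1, derived from a BALB/c mammary carcinoma, had formed over 3 weeks in BALB/c mice, and that had been frozen and cut into sections. In 5 libraries (KO1 to KO5) the tumour cells carried a gene knockout, and in 5 (WT1 to WT5) they were wild-type. Ribosomal RNA was removed and the remaining RNA was copied from random primers, so transcripts without a poly(A) tail were captured. The hosts of both groups were of the strain from which the line came, and the labels give neither the number of clones behind the KO cells nor an animal for each library, so the p-values rest on the spread between libraries, which may be technical.

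These RNAs work as the cores of ribonucleoproteins. C/D box snoRNAs guide methylation of ribosomal RNA and H/ACA box snoRNAs guide pseudouridylation, while scaRNAs direct the same changes on spliceosomal RNAs in Cajal bodies. The spliceosomal snRNAs carry out splicing, 7SK RNA holds the elongation kinase P-TEFb inactive, RNase P RNA trims the leaders of tRNA precursors, RNase MRP RNA acts on precursors of ribosomal RNA, and SRP RNA is the scaffold of the particle that brings secreted proteins to the endoplasmic reticulum. Many snoRNAs and scaRNAs are cut from introns of host genes. Many snRNAs, 7SK, Y and SRP RNAs have numerous related copies in mammalian genomes, near-identical or diverged.

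Several results turn on sequences, which were read from the GENCODE M21 transcripts of GRCm38 and are given from the transcript start. Of the 232 members, 48 had another annotated gene of the 5 biotypes at 95% identity or more over at least 90% of their length, and for U6 snRNA a single member had up to 203 such copies, so the counting could split their reads and their single values are uncertain. Rn7sk, the 7SK RNA gene (ENSMUSG00000065037, chr9:78175303-78175633, minus strand, intergenic), is shown from its first base through base 300, with the 241 bases that also open the copy Gm24447 in capitals.
Rn7sk: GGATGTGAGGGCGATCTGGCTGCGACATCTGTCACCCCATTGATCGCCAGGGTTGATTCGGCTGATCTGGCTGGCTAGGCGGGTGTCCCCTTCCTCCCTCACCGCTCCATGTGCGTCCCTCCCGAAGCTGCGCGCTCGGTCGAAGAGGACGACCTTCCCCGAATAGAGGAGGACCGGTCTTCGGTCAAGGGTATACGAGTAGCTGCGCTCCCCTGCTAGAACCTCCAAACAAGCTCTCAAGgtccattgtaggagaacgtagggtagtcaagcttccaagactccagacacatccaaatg
Gm24265 (chr5:115489459-115489599) and Gm24407 (chr5:115490254-115490394), both on the plus strand, differ at 2 of 141 bases, in capitals. The annotation gives them no functional name, and their sequence is that known for U4 snRNA.
Gm24265: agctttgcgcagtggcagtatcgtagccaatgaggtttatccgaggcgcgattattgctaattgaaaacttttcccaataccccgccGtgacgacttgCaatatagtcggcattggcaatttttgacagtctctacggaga
Gm24407: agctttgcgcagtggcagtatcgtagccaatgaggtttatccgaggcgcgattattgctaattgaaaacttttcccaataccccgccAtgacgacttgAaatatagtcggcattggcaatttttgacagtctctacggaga
The U2 snRNA copy Gm24497 (chr1:72244213-72244403, plus strand, in an intron of the lincRNA D230017M19Rik) and the gene named Rnu2-10 (chr11:101658238-101658428, plus strand) differ at 2 of 191 bases, in capitals.
Gm24497: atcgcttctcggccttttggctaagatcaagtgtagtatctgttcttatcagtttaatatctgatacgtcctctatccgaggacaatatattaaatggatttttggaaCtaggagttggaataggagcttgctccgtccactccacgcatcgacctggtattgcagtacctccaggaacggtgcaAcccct
Rnu2-10: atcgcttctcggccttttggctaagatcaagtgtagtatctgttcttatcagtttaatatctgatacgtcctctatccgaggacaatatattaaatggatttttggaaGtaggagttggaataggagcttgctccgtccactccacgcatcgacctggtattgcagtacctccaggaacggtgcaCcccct
For the snoRNA classes, Snord17 (chr2:144265979-144266216, minus strand, in an intron of Snx5) has a C box, TGATGA, and a D box, CTGA, in capitals, and Snora23 (chr7:110046364-110046547, plus strand, in an intron of Ipo7) has an ACA box near its end.
Snord17: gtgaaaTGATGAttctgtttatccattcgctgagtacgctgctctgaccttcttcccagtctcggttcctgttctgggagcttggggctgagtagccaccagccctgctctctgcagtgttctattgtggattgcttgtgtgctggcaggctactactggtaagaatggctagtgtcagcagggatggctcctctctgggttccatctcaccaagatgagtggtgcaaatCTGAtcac
Snora23: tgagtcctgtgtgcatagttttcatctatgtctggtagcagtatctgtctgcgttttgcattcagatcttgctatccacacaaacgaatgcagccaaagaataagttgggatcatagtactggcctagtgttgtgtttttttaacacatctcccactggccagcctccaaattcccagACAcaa

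The reads behind the gene values ran from 8596772 in KO1 to 19879472 in WT4, and those on the members from 331409 to 882675. At 0 reads stood 1 member in KO3, 1 in KO4 and 2 in WT2, where a count of 0 allows up to 3 reads. The carcinoma markers Epcam, Krt8, Krt18 and Krt19 were all detected in all 10 libraries, with a summed level of 9601 to 14293 normalized counts in KO and 12495 to 20901 in WT. The leukocyte markers Ptprc, Cd3e, Itgam, Adgre1 and S100a8 summed to 5145 to 5832 in KO and 3348 to 5201 in WT, lowest in WT4. The 3 stromal markers ran from 8134 to 23130 in KO and from 9273 to 53636 in WT, highest in WT4. The 4 keratinocyte markers summed to 5078 in WT3, 2261 in WT5 and 484 in WT2 and to at most 105 in the other libraries, where Krt1 and Flg2 were listed at 0. The 3 skeletal muscle markers reached 79201 in WT2 and at most 7577 elsewhere, and were near 0 in KO3 and WT3. An unexplained prefix, RESUB, stands before the library names of WT1, WT2, WT3, WT4 and KO5, so that 4 of 5 WT libraries carry it and 4 of 5 KO libraries do not. WT2 and WT5 share the library number 170, and the labels do not say whether they are of the same tumour. They were kept as separate libraries, and each n of 5 for WT rests on that. Averaged into 1, they gave 29 members higher at an unadjusted p under 0.05 in limma (3.13% of all genes), a median log2 difference of 0.26 and 0 members called, where the fit with all 10 libraries gave 22, 0.24 and 0.

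The members took 5.06% ± 0.74 of a KO library's normalized counts and 3.69% ± 1.12 of a WT library's (SD, n = 5 each). The shares were 3.86%, 5.43%, 4.86%, 5.65% and 5.51% in KO1 to KO5 and 3.64%, 5.10%, 3.02%, 2.25% and 4.44% in WT1 to WT5. KO4 was highest and WT4 lowest, and the groups overlapped, since KO1 lay below WT2 and WT5. In tissue of mixed cells, a lower value can mean fewer cells that hold an RNA or less of it per cell, and these cannot be told apart. Of nuclear protein-coding counts, the members came to 6.40% ± 1.09 in KO and 4.52% ± 1.46 in WT. The difference in share, 1.37 percentage points, was smaller than the range within either group.

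**Figure D1:**
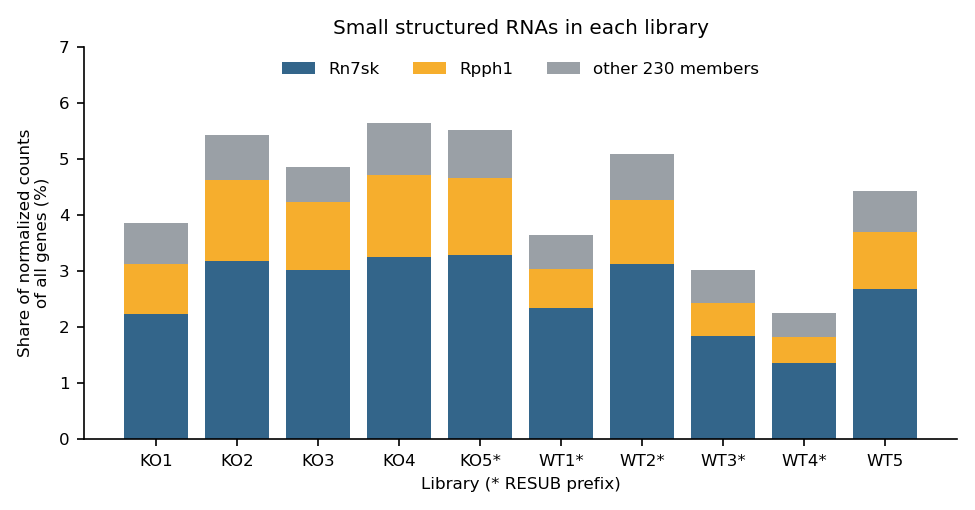
Share of all normalized counts (%) held by Rn7sk, Rpph1 and the other 230 members in each library, with an asterisk on libraries with the RESUB prefix. The bars run from 2.25% in WT4 to 5.65% in KO4, and Rn7sk is the largest part of each.

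A few RNAs made up most of this signal. Rn7sk alone was 60.1% of it and, with Rpph1, the RNA of RNase P, 83.8%. The 10 highest members held 95% and the 20 highest 98.0%. Rn7sk ranked number 2 among all genes in the table by mean level and Rpph1 number 4. Rmrp, the RNA of RNase MRP, ranked 30, the SRP RNA gene Rn7s6 34 and Scarna2 85. Per kilobase of transcript the median member had 162.8 normalized counts and the median nuclear protein-coding gene 71.4. No listed gene had fewer than 101 reads in all, so a short gene could be listed only at a high value per kilobase. These medians thus describe the listed genes and do not compare the classes as a whole.

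Length divided the members sharply. The 52 members of at least 200 bases had a median of 161.5 normalized counts and held 97.8% of the members' signal, while the 180 shorter ones had a median of 16.5. Per kilobase the medians were 634 and 154. The RNA was extracted on silica columns of a kind known to retain short RNA poorly, and its part in this was not tested. The limit of 101 reads in all also set which short genes were listed, and the median of the shorter members lay close to it. The contrasts by length thus hold for listed genes only. The 8 members of the U1 family had a median of 15.7 normalized counts, the 35 tested U6 genes one of 14.4 and the 23 C/D box snoRNAs one of 22.8. Single short members stood far higher, among them the U2 copies Gm24497, Gm23472 and Gm25939, with means over all libraries of 2680, 1594 and 689. The C and D boxes were searched as TGATGA in the first 20 bases and CTGA in the last 15. The ACA box was searched as ACA within the first 5 of the last 7 bases. Both C and D boxes were found in 12 of the 19 members named Snord and in 68 of the 98 annotated Snord genes. An ACA box was found in 16 of the 16 members named Snora and in 40 of 42 annotated ones, against 655 of all 1507 annotated snoRNAs. Among the 64 snoRNA members without a name of their own, 38 had the ACA box and 5 the C and D boxes. A match is a description of the letters and not of a function.

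No member passed the threshold between KO and WT. limma called 0 of 230 tested members at an adjusted p of 0.05, and edgeR and DESeq2 also called 0, where limma called 0.00557% of all 17940 genes tested, edgeR 0.00557% and DESeq2 0.674%. The smallest adjusted p of a member was 0.571 in limma. At an unadjusted p under 0.05, limma placed 22 members above WT in KO, 9.57% of those tested, and 0 below, where 2.83% of all genes were higher and 3.67% lower. edgeR gave 18 members higher (2.64% of all genes) and 0 lower (4.7%), and DESeq2 gave 21 (2.9%) and 0 (4.97%). The fitted value was above 0 for 184 members, 80.0%, against 48.9% of all genes, and the median log2 difference (KO minus WT, of the normalized count plus 1) was 0.24 against -0.01. The groups overlapped for all 230 members, where 0.686% of all genes lay wholly higher in KO and 0.736% wholly lower. Other classes of noncoding transcripts leaned the same way: 75.8% of 924 tested genes of the class TEC (unverified transcripts), 74.6% of 134 sense intronic ones and 72.6% of 62 miRNA genes were above 0, with medians of 0.21, 0.13 and 0.27. The lean was weaker for 730 antisense genes, with 68.5% above 0, and for 432 lincRNA genes, with 60.6%. In this fit the structured RNAs shared the direction of these classes. With the RESUB prefix as a term the medians were -0.08 for TEC, -0.08 for sense intronic, 0.07 for miRNA genes and 0.13 for the members.

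**Figure D2:**
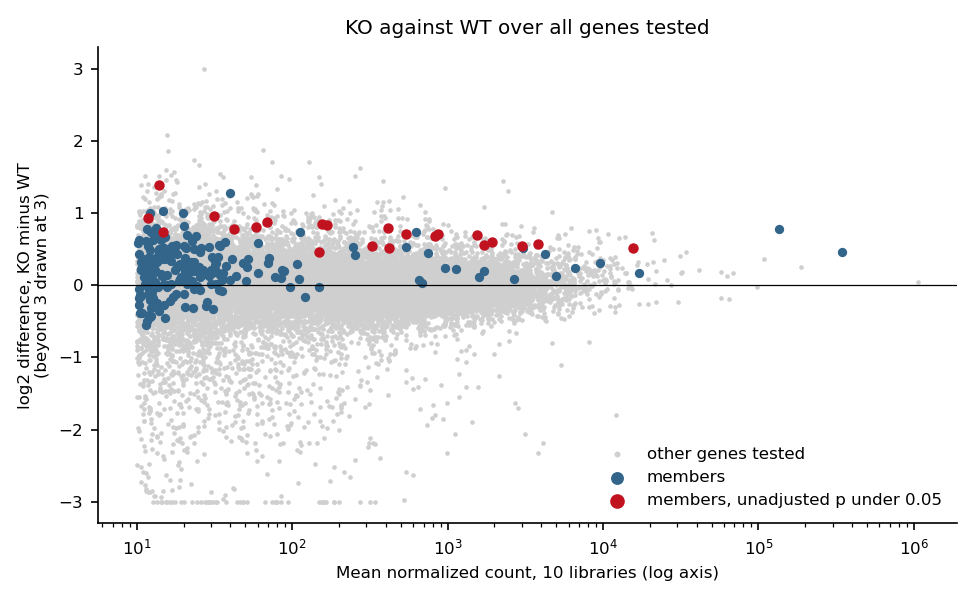
The log2 difference (KO minus WT) of each tested gene against its mean normalized count (log axis), with the 230 tested members over the other genes. The members with an unadjusted p under 0.05, 22 in number, all lie above 0, and none of them passes the threshold after adjustment.

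The lean of the members depended on the libraries used. WT4 had the lowest value of all 10 libraries for 96 of the 230 members and the highest for 0. Its median deviation from the mean of the libraries was -0.70 on the log2 scale, against -0.12 in WT2 and 0.01 to 0.27 in the other 8. This was not particular to the members. In WT4 the deviation was -0.75 for miRNA, -0.67 for TEC and -0.65 for sense intronic genes, and 0.11 for protein-coding genes. Without WT4 the median differences of these noncoding classes were 0.10, 0.05 and -0.02. WT4 was also the library with the lowest leukocyte and the highest stromal marker sum, and their part in its low values was not tested. Single markers went both ways. In WT4, Ptprc, Adgre1 and S100a8 lay below their medians over the libraries, and Cd3e and Itgam above. Col1a1 was 51256 of the stromal 53636 and Pdgfrb was also highest there, while Pecam1, at 1177, was near its median of 1175. Without WT4 the median difference of the members was 0.10, with 6 of them higher at an unadjusted p under 0.05, where 2.36% of all genes were. Without KO2 the number was 10 (1.59% of all genes), without KO4 7 (2.10%) and without WT1 11 (1.99%). With the RESUB prefix as a term the median was 0.13, with 147 of 230 members above 0 (50.7% of all genes were below). At an unadjusted p under 0.05 there were then 6 higher members (3.61% of all genes) and 0 lower ones (4.04%). The median was 0.32 within the prefixed libraries, with KO5 alone for KO, and 0.04 within the others, with WT5 alone for WT. The prefix itself went with lower values (median -0.19; 147 members below 0, where 51% of all genes were), with 22 members lower and 5 higher at an unadjusted p under 0.05, against 4.62% and 7.12% of all genes. Without the WT2, WT3 and WT5 libraries, where the keratinocyte markers were raised, only WT1 and the low WT4 stood for WT, both with the prefix. The median was then 0.47 and 40 members were higher at an unadjusted p under 0.05 in limma, where 3.88% of all genes were.

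**Figure D3:**
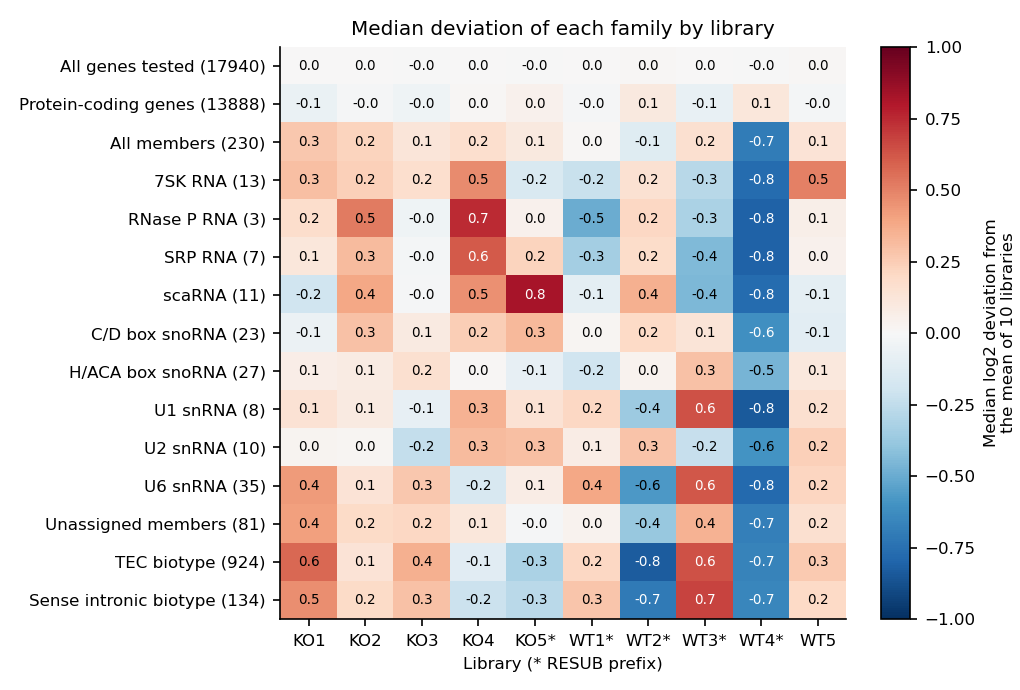
Median log2 deviation of each family from the mean of the 10 libraries, by library, with the number of tested genes in brackets and an asterisk on libraries with the RESUB prefix. The column of WT4 is low for each family of members shown and near 0 for all genes tested. In WT2 the TEC and sense intronic classes are also low, as are the U1, U6 and unassigned members. The other families of members shown are above 0 there.

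In what follows, a mean is ± SD over 5 libraries and a log2 difference ± SE from limma. The ribozymes and their relatives came first in level after 7SK. Rpph1 (chr14:50807449-50807767, minus strand, sharing exonic bases with Ccnb1ip1) had 108399, 182274, 161346, 205698 and 192166 normalized counts in KO1 to KO5 and 87031, 161645, 68769, 66740 and 132415 in WT1 to WT5. KO1 and KO3 lay below WT2, while KO2, KO4 and KO5 lay above every WT library. The means were 169976 ± 38033 and 103320 ± 41969 (SD, n = 5 each), a log2 difference of 0.78 ± 0.38 (SE, limma adjusted p = 0.784). Its relatives Rprl2 and Rprl3, RNase P RNA-like genes, had log2 differences of 0.52 ± 0.21 and 0.52 ± 0.24, and the median of the 3 genes was highest in KO4 (0.74) and lowest in WT4 (-0.81) among the libraries. Rprl2 averaged 493 ± 121 normalized counts over KO and 344 ± 81.0 over WT, and Rprl3 290 ± 78.4 and 202 ± 55.9. Rmrp (chr4:43492788-43493058, minus strand; a second annotated gene of this name overlaps it) followed another pattern over the libraries. Its levels were 9568, 16500, 13936, 24154 and 26839 normalized counts in KO and 15649, 27376, 11483, 14827 and 11056 in WT. Its highest values were in WT2 and KO5 and its lowest in KO1, and the log2 difference of 0.16 ± 0.33 (limma adjusted p = 0.971) was within the spread of each group.

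7SK RNA was the largest single source of signal. The level of Rn7sk was 267952, 403467, 403596, 452291 and 460060 normalized counts in KO and 290785, 439078, 208915, 196301 and 350258 in WT. KO1 lay below WT1, WT2 and WT5, so the groups overlapped widely, and the log2 difference was 0.46 ± 0.45 (limma adjusted p = 0.936). All 13 members of the 7SK family had a fitted value above 0 (48.9% of all genes did), with a median of 0.24. With the prefix as a term, however, the family's median was -0.09. The 12 annotated copies came to 5.56% ± 1.78 of the level of Rn7sk in KO and 6.30% ± 1.37 in WT, with the highest ratios in KO1 and WT5, 8.35% in each, and the lowest in KO5, 3.73%. The copies differ in how closely they match Rn7sk. Gm24447 shares its first 241 bases with it, the capitals above, and 66.4% of its stretches of 50 bases occur in Rn7sk. The longest exact run of Gm23973 in Rn7sk is 56 bases, but 73.2% of its length aligned to Rn7sk at 96.2% identity. Gm23973 was the higher of the 2, with 7010 ± 1168 normalized counts in KO and 6210 ± 2354 in WT, against 5151 ± 1220 and 4779 ± 1407 for Gm24447. No member of the family met the stated limits for a near-identical copy. Reads of Rn7sk could still have been counted at its annotated copies. Their part in the values of the copies, and in the shared direction of the family, was not tested. Gm24146 was at 5340, 4688, 4709, 5690 and 3027 in KO and 2743, 4096, 2717, 2024 and 7193 in WT. Its unprefixed libraries, WT5 among them, all lay above the prefixed ones, and the prefix term was -1.05 on the log2 scale, beside a KO difference of -0.19 in the same fit and of 0.44 ± 0.31 without the term. Gm24224, a distant 7SK relative at 42.3 ± 20.1 in KO and 20.7 ± 6.92 in WT, had the family's smallest p (0.0189 unadjusted, 0.681 adjusted, limma). Its KO libraries ran from 23.6 to 75.9 and its WT libraries from 10.9 to 27.2, so that KO5 lay among the WT libraries.

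The SRP RNA genes had differences of similar size. All 7 had a fitted value above 0 (48.9% of all genes did), with a median of 0.54 and values from 0.30 to 0.57. In limma 5 were higher at an unadjusted p under 0.05, where 2.83% of all genes were. With the prefix as a term 0 were (3.61% of all genes), and the median was 0.41. Rn7s6 (chr6:69516339-69516629, plus strand) stood at 16618, 18812, 14899, 22531 and 17920 normalized counts in KO and 12251, 17657, 10236, 9282 and 15618 in WT. WT2 lay above KO1 and KO3, and the log2 difference was 0.51 ± 0.24 (limma adjusted p = 0.766). Rn7s1 and Rn7s2 are near-identical copies on chromosome 12, so the counting could split their reads. Rn7s1 had 2490, 3516, 3313, 4777 and 3710 in KO and 2048, 3233, 2249, 1644 and 3177 in WT (0.54 ± 0.23). Rn7s2 had 6131, 3957, 3356, 5494 and 3916 in KO and 2420, 3698, 2578, 2942 and 3531 in WT (0.57 ± 0.21, limma adjusted p = 0.673). The ratio of Rn7s2 to Rn7s1 was 2.46 in KO1, 1.79 in WT4 and between 1.01 and 1.18 in the other 8 libraries, so the pair separated in those 2. Gm24514 (2030 ± 365 in KO, 1408 ± 378 in WT) and Gm23153 (381 ± 51.6 and 268 ± 77.0) had log2 differences of 0.56 ± 0.21 and 0.54 ± 0.21.

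**Figure D4:**
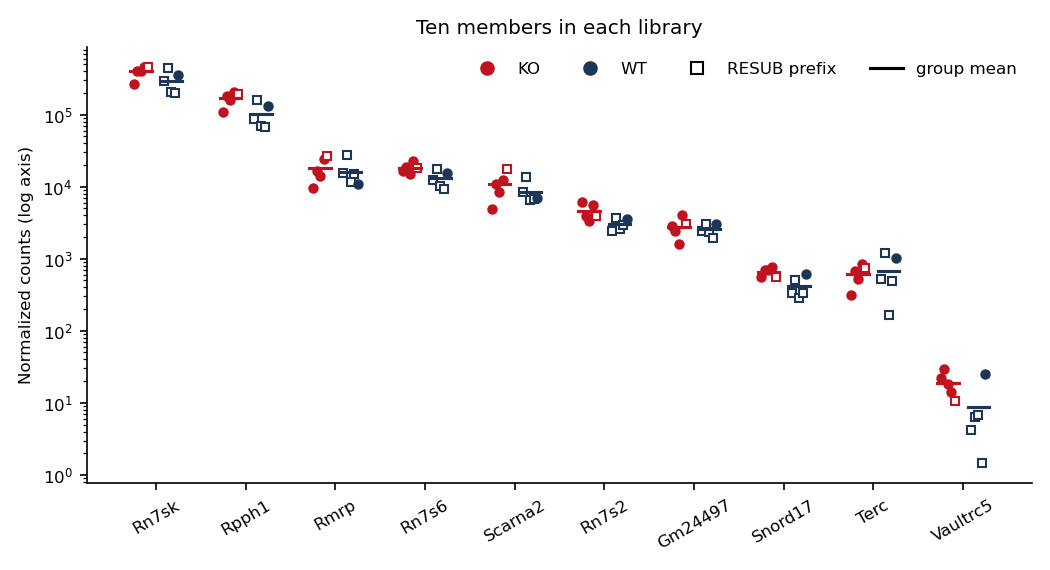
Normalized counts (log axis) of 10 members in each KO and WT library, with open squares for libraries with the RESUB prefix and lines at the group means. The groups overlap for each of the 10, and in Vaultrc5 the 1 WT library without the prefix, WT5 at 25.5, lies among the KO libraries.

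The scaRNAs had fitted differences close to those of the SRP RNAs. Of 11 tested genes of the family, 9 were above 0 (48.9% of all genes were), with a median of 0.54. In limma 4 were higher at an unadjusted p under 0.05, where 2.83% of all genes were. With the prefix as a term the median was 0.68, with 3 genes higher at that level (3.61% of all genes). Within the prefixed libraries it was 1.07, within the others 0.29, and without WT4 0.36. Scarna2 (chr3:108554338-108554751, minus strand), an intergenic gene and not an intron product, ranged over 4926, 10889, 8306, 12279 and 17519 normalized counts in KO and 8357, 13430, 6447, 6683 and 6895 in WT. KO5 and WT2 were highest and KO1 lowest, and the difference was 0.30 ± 0.33. Scarna6 and Gm25395 both lie in introns of Atg16l1, an autophagy gene, on chromosome 1. Scarna6 had 124, 249, 146, 227 and 254 in KO and 94.7, 173, 71.9, 87.6 and 134 in WT. Its WT2 lay above KO1 and KO3, and the log2 difference was 0.84 ± 0.28 (limma unadjusted p = 0.0112, adjusted p = 0.655). Gm25395 had 1060 ± 228 and 675 ± 267 (0.71 ± 0.26, adjusted p = 0.671, limma), and Atg16l1 itself 736 ± 90.7 and 591 ± 86.5 (0.32 ± 0.16, limma adjusted p = 0.787). Scarna13, in an intron of Snhg10, had 517 ± 154 in KO and 314 ± 151 in WT, with a log2 difference of 0.80 ± 0.33. Gm22009, in an intron of the importin gene Kpna4, was at 2496 to 6189 in KO and 1549 to 3926 in WT (0.52 ± 0.29), and with the prefix as a term at 0.92. Scarna3a, in an intron of Cop1, was low (14.2 ± 4.39 and 9.51 ± 3.02, log2 0.55 ± 0.36). The 2 genes of the family below 0 were Gm26039 (8.85 ± 3.65 in KO and 14 ± 7.002 in WT, -0.56 ± 0.44) and Gm23119 (151 ± 69.8 and 149 ± 53.9, -0.02 ± 0.36), the second chosen after its values were seen.

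Among the snoRNAs, Snord17 had the smallest p of all members (limma unadjusted p = 0.0066, adjusted p = 0.571). Its libraries held 558, 697, 700, 779 and 559 normalized counts in KO and 334, 510, 286, 331 and 612 in WT. WT5, the WT library without the prefix, lay above KO1 and KO5, and the other 4 WT libraries lay below every KO library. The log2 difference was 0.72 ± 0.22, 0.40 with the prefix as a term and 0.15 within the libraries without the prefix. Its host Snx5, a sorting nexin, had 0.21 ± 0.22. Snora23, chosen here after its values were seen as the highest H/ACA snoRNA, had 1483, 1764, 1887, 2406 and 1622 in KO and 880, 1645, 770, 654 and 2352 in WT. WT2 and WT5 lay within the KO range, and the log2 difference of 0.70 ± 0.32 (limma adjusted p = 0.756) became -0.34 within the libraries without the prefix. Its host Ipo7, an importin, had 0.01 ± 0.22, while Gm25636, another snoRNA in an intron of the same gene, had -0.46 ± 0.40 at 13.3 ± 9.04 normalized counts in KO and 17.1 ± 5.23 in WT. Of the C/D box snoRNAs 19 of 23 were above 0 (median 0.17), and of the H/ACA box snoRNAs 21 of 27 (median 0.21). Over all genes 48.9% were above 0. In each class 2 genes above 0 and 0 below had an unadjusted limma p under 0.05, against 2.83% and 3.67% of all genes. Snora43 had 20.1 ± 3.36 in KO and 25.5 ± 5.14 in WT, a difference of -0.32 ± 0.27 (limma adjusted p = 0.913) that was within the spread.

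For the genes assigned to the U1, U2, U5 and U6 snRNA families no difference between the groups was detectable. The families were assigned by name or by at least 70% identity over 60% of the member. Only 4 of 8 U1 and 7 of 36 U6 members had a near-identical copy, so the values describe single annotated genes and not the whole U1 or U6 RNA. The U2 copy Gm24497, at 2802, 2452, 1579, 4073 and 3074 in KO and 2417, 3070, 2318, 1953 and 3065 in WT, had a log2 difference of 0.08 ± 0.24, and the lowest and the highest library were both KO. The gene named Rnu2-10, 2 bases away from it in sequence, had a mean of 11.98 ± 7.25 in KO and 10.02 ± 8.43 in WT. The neighbours Gm23472 and Gm25939, with 1 and 3 bases different from Gm24497, had log2 differences of 0.11 ± 0.24 and 0.03 ± 0.24. By family the medians were 0.11 for 8 U1, 0.10 for 10 U2, 0.19 for 4 U5 and 0.14 for 35 tested U6 genes. The U1 genes ran from -0.13 to 1.27, the highest being Gm25926, in an intron of Fut8. For none of the genes in these families did limma give an unadjusted p under 0.05, where 2.83% of all genes were higher and 3.67% lower. For the U4 pair, chosen after its values were seen, the prefix term was larger than the genotype term. Gm24265 had 1240, 1129, 703, 1242 and 712 in KO and 452, 452, 758, 456 and 1173 in WT, and Gm24407 1054, 773, 551, 937 and 458 in KO and 332, 308, 533, 280 and 1004 in WT. For Gm24407 the unprefixed libraries, WT5 among them, all lay above the prefixed ones. For Gm24265 WT5 lay with KO1, KO2 and KO4, but the unprefixed KO3 (703) lay below the prefixed KO5 (712) and WT3 (758). The prefix terms of Gm24265 and Gm24407 were -0.87 and -1.16 on the log2 scale, beside KO differences of 0.15 and 0.03 in the same fit. Without the term the KO differences were 0.68 ± 0.29 and 0.73 ± 0.35. Gm25835, of no assigned family and in an intron of the translation factor gene Eif4a1, did likewise, at 73.7 ± 21.8 in KO and 43.7 ± 21.7 in WT, with 0.80 ± 0.32 without the term and 0.22 with it. For the prefix itself, 8 members lay wholly lower in the prefixed libraries and 0 wholly higher, where 0.613% and 0.875% of all genes did.

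The remaining named RNAs were low or variable. For Vaultrc5, the RNA of the vault particle, the libraries held 22.4, 29.1, 18.3, 14.3 and 10.5 normalized counts in KO and 4.16, 6.375, 6.797, 1.45 and 25.5 in WT. It had the highest log2 difference of any member, 1.39 ± 0.56 (limma adjusted p = 0.709), but with the prefix as a term it was 0.42, and within the unprefixed libraries it was -0.31. Terc, the template RNA of telomerase, spanned 309 to 858 in KO and 165.1 to 1211 in WT, a log2 difference of 0.07 ± 0.46 in limma and of -0.13 in edgeR. The Y RNAs Rny1 and Rny3, which bind the Ro protein, had 96.7 ± 38.7 and 66.6 ± 27.9 in KO and 80.9 ± 21.1 and 53.1 ± 5.19 in WT (0.19 ± 0.30 and 0.17 ± 0.35). Zakit, in an intron of Map3k20, had 25.6 ± 8.60 and 24.6 ± 17.9 (0.25 ± 0.45). On the lower side, Gm22063, Gm25482, Gm25776, Gm22884 and Gm26394 had log2 differences from -0.42 to -0.29, with means of 10.2 to 35.1 normalized counts in either group, and none had an unadjusted p under 0.05.

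Members inside host genes were set beside their hosts. Of the members, 128 lie within a tested gene of another class on the same strand, in 111 hosts. The median log2 difference was 0.24 for the members and 0.01 for the hosts, and 91 of 128 members had the higher value. Member and host had the same sign in 71 pairs. For the 75 snoRNA pairs the medians were 0.27 and 0.02, and the 5 scaRNAs all had a higher value than their host. Per kilobase 4 of these 5 scaRNAs were denser than the host transcripts, with a median ratio of 24.0 over the 5, and Scarna3a was less dense than Cop1 (84.8 against 109.6 normalized counts per kilobase), whereas for snoRNAs the median ratio was 0.56 and 27 of 75 were denser than their host. Unspliced host RNA also covers these positions, so at ratios under 1 the share of reads from the mature small RNA is unknown. Of all members, 34 share exonic bases with another gene, and since the use of strand is not stated, the reads of such a pair may be mixed.

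**Figure D5:**
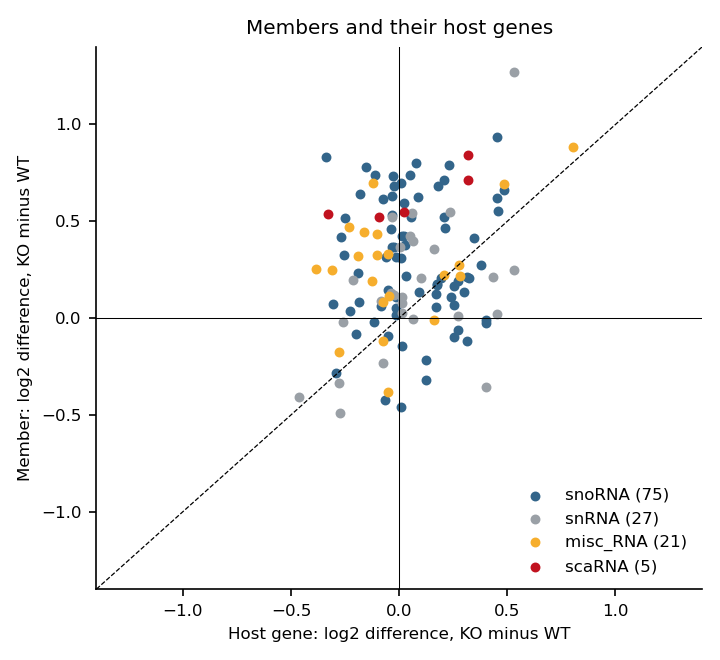
The log2 difference (KO minus WT) of 128 members against that of the gene that holds them, coloured by biotype, with the line of equal values dashed. Most points lie above the line, 91 of 128, and the 5 scaRNAs all do.

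The genes of the proteins that build or bind these RNAs were split in direction. Of 106 tested of 110 listed, 48 were above 0 and 58 below, with a median of -0.02. limma, edgeR and DESeq2 called 0. An unadjusted limma p under 0.05 was found for 2 of the 106 above 0 and for 2 below, which is no more than among all genes (2.83% and 3.67%), and with the prefix as a term the median was 0.16. Shq1, an assembly factor of H/ACA particles, had 146 ± 16 in KO and 102 ± 13 in WT (log2 0.52 ± 0.17, limma adjusted p = 0.636), while Gar1 of the same core had -0.56 ± 0.26. Snapc1, of the complex that starts transcription of snRNA genes, had 399 ± 130 and 244 ± 30.2 (0.65 ± 0.22). Below 0 were Lsm6, of the ring on U6 RNA (257 ± 45.5 and 375 ± 35.5, -0.56 ± 0.17), and Pop1, a subunit of RNase P and MRP (242 ± 26.6 and 320 ± 56.9, -0.39 ± 0.17). By list, 4 of 12 C/D box genes, 2 of 6 H/ACA genes, 4 of 7 Sm genes and 4 of 7 LSm genes were above 0. So were 3 of 11 genes of the U1 and U2 particles, 1 of 10 of the tri-snRNP and 5 of 12 of the SMN complex. The 7SK list had 4 of 7 above 0, RNase P and MRP 6 of 10, SRP 5 of 7, La, Ro and vault 4 of 5, and snRNA transcription 6 of 12. For 7SK, Larp7 and Mepce, which bind and cap it, had -0.24 ± 0.18 and -0.26 ± 0.19, beside 0.46 ± 0.45 for Rn7sk. For SRP, Srp19 and Srp9 had 0.27 ± 0.25 and 0.22 ± 0.27.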

How the data were processed

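RNA was sequenced from 10 tumour samples, placed in groups by the genotype in the labels (5 KO, 5 WT) and all with the batch label 1. The deposited table holds signal values, gene-level read counts that the authors divided by a size factor per library. Divided by what 1 read is worth in its library, 100% of the values came out whole within a tolerance of 0.0001, and the recovered factors equalled median-of-ratios factors. The submitters' processing notes name bcl2fastq 2.17 and GRCm38. Which aligner and counter were used, and whether strand and the primers' molecular identifiers were, is not given in the sources used here, so floors cover counting error only. Of 18047 rows, 35 ERCC spike-in rows were left out of the tests. GENCODE M21 held 17953 of the other IDs and not 59. The lowest total of any gene is 101 reads.

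Tests covered the 17940 genes, 230 members among them, whose mean normalized count reached 10 (2 members fell below). The main comparison of KO with WT was limma-trend (limma 3.58.1 in R 4.3.3) on log2(normalized count + 1), two-sided, with Benjamini-Hochberg adjustment over all genes at 0.05, a scale that understates changes of low genes. Alternatives were DESeq2 1.42.0 and edgeR 4.0.16 on the recovered whole reads, and other pseudocounts, filters, scalings, covariates and sets of libraries. The members and gene lists were chosen with earlier results of these data known. Named genes are the 12 highest members, up to 8 with the smallest p in each direction, each misc_RNA, scaRNA and ribozyme member with a gene name (names beginning with Gm and a number were not counted as such), up to 2 genes of each protein list, and hosts. Families were assigned by name or by blastn 2.17.0 (at least 70% identity over 60% of the member to a named gene). In 5 simulated sets of 17940 genes with 200 changed, the limma step found 18.7% of the genes changed by 1 on the log2 scale and 76.5% of those changed by 2, with 3.9% false calls. Figures used matplotlib 3.10.9 (Python 3.11.15). The planned check of the labels is not reported here.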

Additional observations from a re-analysis of the deposited data

Results flagged for a closer look

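Among 50 groups of 5 libraries checked for a library far from the others (25 members), 3 were found, and chance finds about 1 in 20. WT2 stood far above the other WT libraries for Rmrp, with 27376 normalized counts against 15649 in the next, and for Scarna2, with 13430 against 8357. It is also the library with the highest muscle marker sum, and the part of this in both values was not tested. For Vaultrc5, WT5 had 25.5 normalized counts against 6.797 in the next WT library. It is the 1 WT library without the RESUB prefix, and the KO libraries ran from 10.5 to 29.1.

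The ERCC spike-in rows, which no comparison above uses, took from 0.151% of the reads in KO1 to 0.545% in KO3, a 3.61-fold range, and averaged 0.317% ± 0.147 (SD, n = 5) over the KO libraries and 0.280% ± 0.0873 (SD, n = 5) over the WT libraries. The ranges of the groups overlapped.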

How the results depend on the processing

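Over the alternatives, 0 members were called by limma, edgeR or DESeq2 under any setting, and the median difference of the members stayed above 0, from 0.04 to 0.47. The number of members higher at an unadjusted p under 0.05, 22, became 6 with the RESUB prefix as a term (3.61% of all genes), 4 in the prefixed libraries (1.18%), 3 in the others (3.17%), 0 under scaling on the ERCC reads (0.256%, where the median of all genes was -0.12 and that of the members 0.13; chosen after seeing the data) and 40 without WT2, WT3 and WT5 (3.88%). The last of these fits kept only WT1 and WT4 for WT. Leaving out 1 library gave from 6 (without WT4, 2.36% of all genes) to 31 (without WT5, 3.14%). The replicate block (replicate number as a block) gave 15 (2.79%) and 0 calls, with the same median of 0.24. Same-numbered libraries correlated at -0.229 to 0.522 in their deviations, so the numbers were not taken as pairs. With 1 library left out, 0 to 5 members lay wholly higher in KO and 0 to 1 wholly lower. The share of all genes that did so in those smaller sets was not computed, so nothing is read from these counts. The median of the protein genes was 0.00922 under protein-coding scaling, 0.16 with the prefix as a term, 0.18 in prefixed and 0.037 in unprefixed libraries and, without 1 library each, -0.0890 to 0.0353. Signs turned with the prefix as a term for Gm23973 (-0.0864), Gm24146 (-0.19), Gm24447 (-0.10), Rny1 (-0.0114), Terc (-0.14) and Zakit (-0.30). In the prefixed libraries they turned for Gm25776 (0.0807), Gm26394 (0.115) and Zakit (-0.43). In the unprefixed libraries they turned for Gm22884 (0.18), Gm23973 (-0.41), Gm24146 (-0.50), Gm24447 (-0.34), Gm24497 (-0.25), Gm25482 (0.0401), Gm25835 (-0.0435), Rny1 (-0.30), Rny3 (-0.0328), Terc (-0.89), Vaultrc5 (-0.31) and Zakit (-0.17). Under ERCC scaling Gm24497 was -0.0377 and Terc -0.0431, and Terc was -0.13 in edgeR and -0.14 in DESeq2. Leaving out 1 library turned Gm24497 (-0.0724 to 0.269) and Terc (-0.363 to 0.354). The cause was not tested. Depth limits the 192 members with a mean under 100 normalized counts. At or above that level 38 of 40 had a fitted value above 0, and under it 146 of 190. Of those 40 members, 30 were at least 200 bases long and 10 were shorter. Level and length thus cannot be told apart here, and the part of either was not tested.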
